A study of Mus musculus with 6 samples.

Results

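Host genes of small nucleolar RNAs, whose own spliced RNAs are non-coding, were followed in mouse cultures labelled as cortical neurons, with and without Fmr1. They are Gas5, Snhg1, Snhg3, Snhg5, Snhg6, Snhg8, Snhg12, Snhg15, Zfas1 and Epb41l4aos. They were chosen by gene name and make up 10 of the 55367 rows of the count table. All 10 passed the filter on low counts and so belong to the 16976 genes tested. RNA-seq was performed on 6 libraries, 3 from WT and 3 from Fmr1-KO mice, both on the C57BL/6J background. The cells were taken from cortex at postnatal day 1 and kept for 2 days in vitro. According to the study's methods, ACSA2+ astrocytes and myelin had been depleted before plating. Fmr1 encodes FMRP, an RNA-binding protein that is lost in fragile X syndrome, and the comparison asks how its loss changes the RNA of these cultures. The mice themselves carry the knockout, so all cell types of a culture share it. The labels do not say whether the 3 libraries of a genotype came from separate animals or litters. P values therefore set the genotype difference against variation between these libraries only.

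Small nucleolar RNAs (snoRNAs) guide the chemical modification of ribosomal RNA. Box C/D snoRNAs direct ribose methylation and box H/ACA snoRNAs direct the conversion of uridine to pseudouridine, each within a ribonucleoprotein particle. In mammals most snoRNAs are cut out of introns after splicing, and the RNA left after the exons are joined is the host transcript measured here. Many host transcripts begin with a C followed by a run of pyrimidines, the terminal oligopyrimidine (TOP) start that is shared with ribosomal protein mRNAs and couples translation to growth signals. The exons of non-coding hosts hold only short reading frames, and host RNAs such as that of Gas5 are textbook substrates of nonsense-mediated decay (NMD), the pathway that degrades mRNAs on which translation stops early.

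Annotated start sites of the hosts are shown first, since most hosts have a TOP-like start in at least one annotated transcript. For each gene shown, one transcript start was chosen for having the run. It is given 5′ to 3′ on the transcribed strand, with the leading C and the pyrimidines that follow it in capitals. Most annotated transcripts of each of these genes lack the run, which is in 5 of 25 for Gas5 and 1 of 5 for Snhg6. The sequences are those of the GENCODE M21 transcripts on GRCm38.
Gas5: CTTTCggagctgtgcggcattctg
Snhg3: CTCTCTaggcgtcgctctcttggt
Snhg5: CTTTTacgacggagcctaagatat
Snhg6: CTTTCTCggcagcgccgtagagcg
Snhg8: CCCTCgcgcgcaggctcttgggag
Snhg12: CCTTTCTCgcttcatccgcggtcc
Zfas1: CCTTTCgttccggcggctcctaga

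A start of C and further pyrimidines over at least 5 bases was annotated for at least one transcript of 7 of the 10 hosts. Among the 16734 tested genes found in the annotation, 9.58% had such a start. Counted by transcript, the share was 15.7% for the hosts and 2.12% for all tested genes. Of hosts outside this group, 12 of 31 protein-coding hosts and 1 of 8 other non-coding hosts had one. No annotated transcript of Snhg1, Snhg15 or Epb41l4aos began with so long a run. These are matches of letters at annotated ends and not measured start sites.

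The snoRNAs carried by the hosts divide them into classes. The annotation places 34 snoRNA genes within the bounds of the hosts on the same strand. Of these, 21 hold the letters TGATGA (box C) in their first 26 bases and CTGA (box D) in their last 16, while 8 lack box C and hold ACA at 3 bases from the 3′ end. The search was made on the snoRNA strand only, and 5 snoRNAs matched neither pattern. Over all 1507 annotated snoRNA transcripts the shares were 20.4% with boxes C and D and 17.8% with box ACA. Sequences of the snoRNAs of 5 hosts are given with these boxes in capitals, to show both classes and the particular cargo of the hosts whose levels are described below.
Snord87: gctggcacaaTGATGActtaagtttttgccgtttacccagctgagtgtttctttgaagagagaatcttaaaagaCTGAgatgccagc
Snord47: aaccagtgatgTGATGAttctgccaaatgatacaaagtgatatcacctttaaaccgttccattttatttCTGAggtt
Gm23201: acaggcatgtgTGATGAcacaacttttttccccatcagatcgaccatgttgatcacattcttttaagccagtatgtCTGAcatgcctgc
Snord12: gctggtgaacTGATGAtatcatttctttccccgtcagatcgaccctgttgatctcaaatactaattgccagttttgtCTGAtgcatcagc
Snora24: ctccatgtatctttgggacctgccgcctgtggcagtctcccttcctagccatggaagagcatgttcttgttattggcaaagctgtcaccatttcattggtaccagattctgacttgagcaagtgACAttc
Snora9: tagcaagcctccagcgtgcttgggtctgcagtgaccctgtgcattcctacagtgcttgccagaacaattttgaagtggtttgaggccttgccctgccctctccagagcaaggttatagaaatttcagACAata

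Snord87 lies in an intron of Snhg6 (GRCm38 chr1:9942463-9942549, minus strand) and Snord47 within Gas5 (chr1:161038082-161038158, plus strand). Gm23201 (chr2:167064998-167065086) and Snord12 (chr2:167065276-167065365) both lie within Zfas1 on the plus strand. Snora24 is carried by Snhg8 (chr3:123507937-123508066, minus strand) and Snora9 by Snhg15 (chr11:6528033-6528165, minus strand). By these letters Gas5, Snhg1, Snhg5, Snhg6 and Zfas1 carry box C/D snoRNAs, and Snhg3, Snhg8, Snhg15 and Epb41l4aos carry box H/ACA snoRNAs. Snhg12 carries 3 annotations of the second class and 1 of the first.

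**Figure D1:**
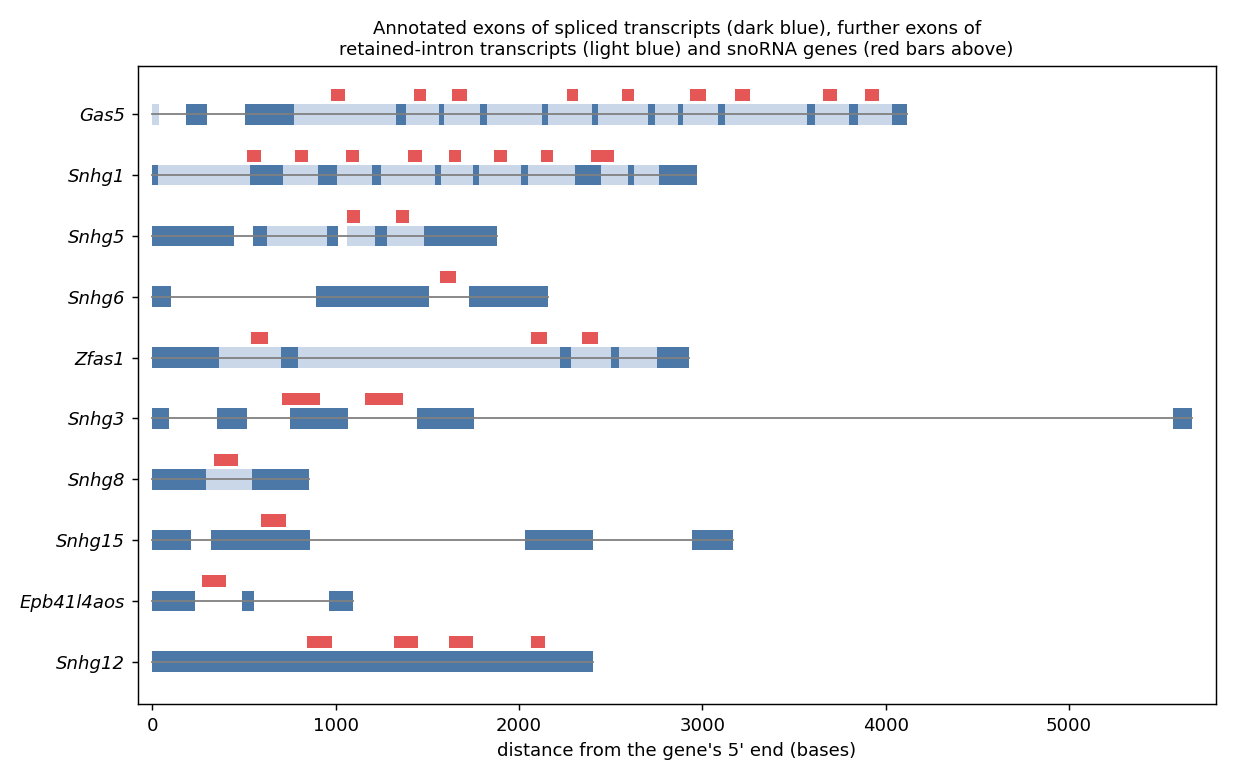
Exon and snoRNA positions of the 10 host genes, as distance in bases from the 5′ end of each gene (x axis), one gene per row. Dark blue boxes are exons of transcripts not annotated as retained intron. Light blue boxes are further exonic stretches of transcripts annotated as retained intron, and red bars above them are snoRNA genes. In Snhg12 dark blue covers the whole gene, snoRNAs included, so these boxes are not spliced exons alone. In Gas5, with 10 snoRNA annotations, and in Snhg1, with 8, most snoRNAs lie over a light blue stretch, while the single snoRNA of Snhg6 lies in a gap between exons.

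Libraries were similar in depth, with 30348556 to 35126207 counts each. The targeted gene was checked first. Fmr1 counts were 4113, 3710 and 3656 in WT and 1761, 1879 and 1972 in Fmr1-KO. Scaled to library size by the TMM method, in the unit CPM (counts per megaread of library), these were 113.4 ± 4.50 and 57.4 ± 3.67 (mean ± SD, n = 3 each), a log2 fold-change of -0.98 (SE 0.04). Counts summed by gene name do not show which exons the remaining Fmr1 reads cover. The neuronal marker Rbfox3 was present at 68.7 ± 0.462 CPM in WT and 41.8 ± 0.699 CPM in Fmr1-KO, and so was the astrocyte marker Gfap, at 2649 ± 67.0 and 2297 ± 158.2 CPM. Markers of several cell types differed with genotype (edgeR adjusted P under 0.05). For comparison, 20.7% of all tested genes were higher in Fmr1-KO and 21.9% were lower. Of 10 neuronal markers 9 were lower in Fmr1-KO and 1, Dcx, was higher (log2 fold-change 0.08, edgeR adjusted P = 0.0312), a call lost without WT library 1 or 3 or Fmr1-KO library 3 (0.06 to 0.09, edgeR adjusted P from 0.0643 to 0.168). Their summed level was 4618 to 4717 CPM in WT and 3935 to 4133 CPM in Fmr1-KO. All 8 markers of proliferating cells were higher, with sums of 480.4 to 520.1 and 832.3 to 888.3 CPM. Of 8 neural progenitor markers 4 were higher and 4 did not pass (2382 to 2396 and 2692 to 2762 CPM). Astrocyte markers were present despite the depletion, with 1 of 6 higher and 3 lower in Fmr1-KO (4486 to 4591 and 3855 to 4245 CPM). All 6 oligodendrocyte lineage markers were lower (1628 to 1738 and 922.2 to 998.7 CPM), as were 5 of 6 microglial markers (119.6 to 134.4 and 76.0 to 83.3 CPM). Of 5 tested endothelial and mural markers 3 were higher and 1 lower (75.2 to 82.7 and 92.9 to 99.6 CPM). Among the 3, the call of Flt1 (0.41, edgeR adjusted P = 0.0369) was lost in 7 of 12 other settings, DESeq2 included. Leaving out single libraries gave 2 to 3 higher in this list. The part of these shifts in the host results below was not tested. In bulk RNA, fewer cells of a type and less RNA per cell cannot be told apart.

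Most of the hosts differed little between the genotypes. Of the 10, only Snhg6 was lower in Fmr1-KO cultures by edgeR's quasi-likelihood test at a Benjamini-Hochberg adjusted P under 0.05 over all tested genes (edgeR adjusted P below). None was higher. DESeq2 gave the same counts, against 35.7% of all tested genes called. The background is a comparison in which 42.6% of all tested genes passed, 20.7% as higher and 21.9% as lower. Among the 10165 genes whose mean level fell within the range of the hosts (6.63 to 155.0 CPM), 49.2% passed. The median log2 fold-change of the hosts, Fmr1-KO relative to WT, was -0.08, beside 0.01 for all tested genes, with 7 hosts below 0 and 3 above. The median size of the change without regard to sign was 0.10 for the hosts and 0.15 for all tested genes. Among the genes in the hosts' range of levels it was 0.12. The median SE was 0.065 for the hosts, 0.060 for all tested genes and 0.049 for the genes in that range. The hosts were thus measured less precisely than genes of like level. At an unadjusted P under 0.05 there were 3 hosts (Snhg6, Snhg15 and Snhg1), against 49.4% of all tested genes.

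**Figure D2:**
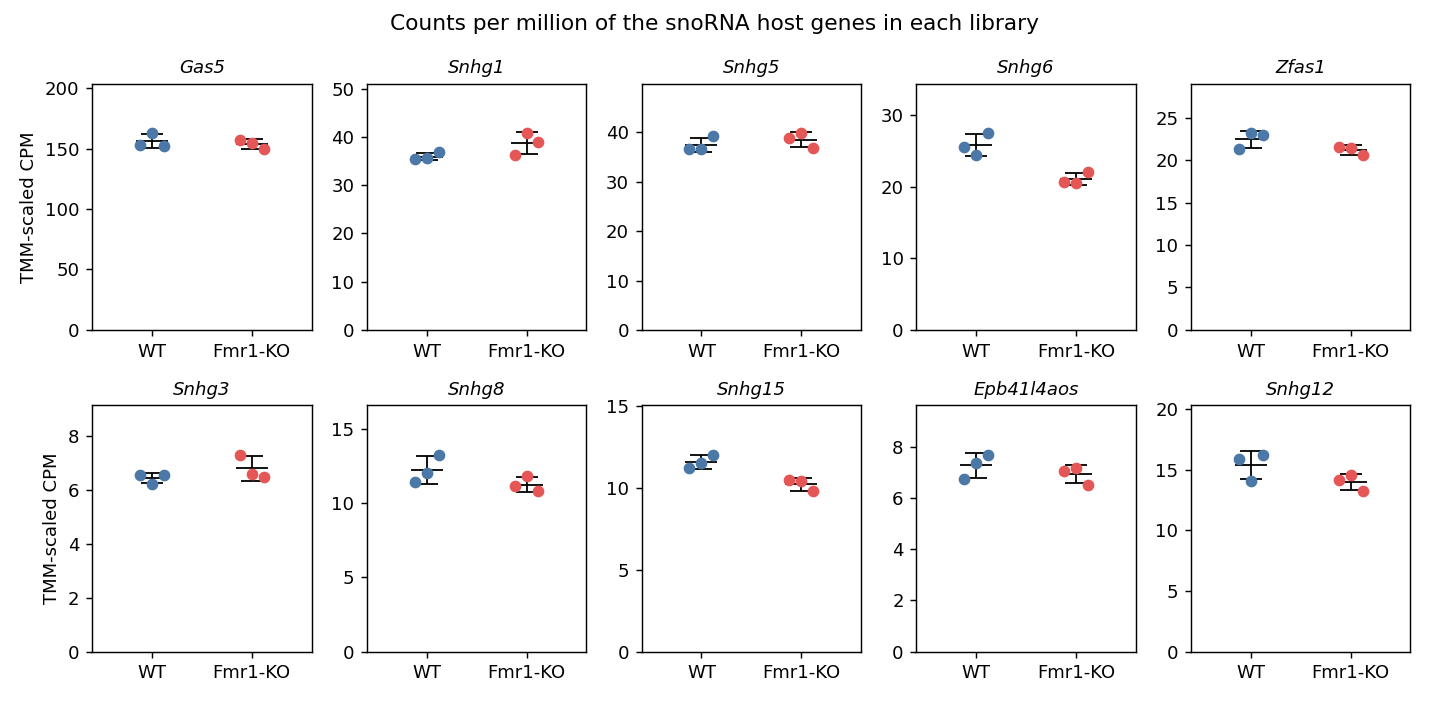
TMM-scaled CPM (y axis, from 0, a scale of its own in each panel) of the 10 hosts in each WT library (blue) and each Fmr1-KO library (red); black bars give the mean and SD of 3 libraries. The blue and red points are apart without overlap only for Snhg6 and Snhg15, where Fmr1-KO is lower.

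Gas5, named for its accumulation in growth-arrested cells, carries the largest number of snoRNAs of the group. It had 5322, 5389 and 5083 counts in WT and 5108, 4746 and 5194 in Fmr1-KO. The libraries of the genotypes overlapped, at 156.1 ± 5.95 and 153.8 ± 4.04 CPM (mean ± SD, n = 3 each). The log2 fold-change was -0.02 with a 95% interval from -0.09 to 0.05 (edgeR adjusted P = 0.649). Gas5 made up between 45.5% and 48.8% of the summed CPM of the hosts in each library.

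Snhg1 carries a series of box C/D snoRNAs, among them Snord22. Its counts were 1232, 1176 and 1229 in WT and 1180, 1251 and 1359 in Fmr1-KO. The lowest Fmr1-KO library lay within the WT range in CPM, and the other 2 lay above it (35.9 ± 0.765 and 38.7 ± 2.31 CPM). The log2 fold-change of 0.11 (SE 0.05, interval 0.01 to 0.21) had an unadjusted P of 0.0391 and did not pass after adjustment (edgeR adjusted P = 0.0828). It passed without the first Fmr1-KO library, at 0.15 (edgeR adjusted P = 0.0257), and with library totals in place of TMM, at 0.14 (edgeR adjusted P = 0.0289).

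Snhg5 carries Snord50a and Snord50b. With 1277, 1210 and 1308 counts in WT and 1267, 1222 and 1281 in Fmr1-KO, it overlapped between genotypes. Its log2 fold-change was 0.04 (interval -0.06 to 0.14, edgeR adjusted P = 0.543).

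Snhg6 carries a single snoRNA, Snord87, whose sequence is given above. Snhg6 counts were 890, 808 and 918 in WT and 673, 629 and 767 in Fmr1-KO. In CPM these were 25.6, 24.4 and 27.5 against 20.7, 20.5 and 22.05. Every Fmr1-KO library was below every WT library. The level fell from 25.9 ± 1.55 to 21.1 ± 0.825 CPM (mean ± SD, n = 3 each), a log2 fold-change of -0.29 (SE 0.06, interval -0.41 to -0.17, edgeR adjusted P = 0.00034). The Fmr1-KO level was 81.7% of WT (interval 75.1% to 88.8%). The change is of the size that is common among called genes, whose median was 0.29 without regard to sign.

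Zfas1, which carries the Snord12 family and starts head to head with Znfx1, had 741, 767 and 764 counts in WT and 702, 655 and 716 in Fmr1-KO. The groups overlapped in CPM, at 22.5 ± 1.01 and 21.2 ± 0.536. The log2 fold-change was -0.08 (interval -0.20 to 0.03, edgeR adjusted P = 0.246).

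Among the hosts of box H/ACA snoRNAs, Snhg15 (Snora9) stood closest to the threshold. It had 389, 380 and 401 counts in WT and 341, 318 and 340 in Fmr1-KO. All 3 Fmr1-KO libraries were below all 3 WT libraries, at 10.2 ± 0.387 and 11.6 ± 0.417 CPM. The log2 fold-change of -0.18 (SE 0.07, interval -0.33 to -0.03) missed the threshold (unadjusted P = 0.0235, edgeR adjusted P = 0.0542). With a stricter filter, which tests fewer genes, it was -0.18 and passed (edgeR adjusted P = 0.0476). Snhg6 and Snhg15 are the 2 hosts with no overlap between genotypes, both lower in Fmr1-KO, against 51.7% of all tested genes with no overlap in either direction, 26.3% downward and 25.4% upward. Among tested genes in the hosts' range of levels the share was 58.0%.

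Snhg3 carries Snora73a and Snora73b, snoRNAs known for a role in cleavage of the ribosomal RNA precursor rather than in its modification. It had 228, 206 and 219 counts in WT and 238, 202 and 226 in Fmr1-KO, with a log2 fold-change of 0.08 (interval -0.11 to 0.27, edgeR adjusted P = 0.538). Snhg8 (Snora24) had 397, 397 and 442 counts and 362, 361 and 375, with -0.12 (interval -0.28 to 0.04, edgeR adjusted P = 0.210). For both, the groups overlapped in CPM.

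Snhg12, which carries snoRNAs of both classes, had 552, 465 and 542 counts in WT and 459, 447 and 462 in Fmr1-KO. Its second WT library was within the Fmr1-KO range in CPM and the other 2 were above it. The log2 fold-change was -0.14 (interval -0.29 to 0.01, edgeR adjusted P = 0.124). Without that library it was -0.20 and passed (edgeR adjusted P = 0.0310). Epb41l4aos had 235, 244 and 257 counts in WT and 230, 220 and 227 in Fmr1-KO, with overlapping groups in CPM and a log2 fold-change of -0.07 (interval -0.26 to 0.12, edgeR adjusted P = 0.555).

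A P that misses the threshold does not show that levels were alike, and the intervals give what the libraries allow. For 8 of the 10 hosts the 95% interval lay within 0.3 log2 units of 0. The exceptions were Snhg6 and Snhg15, whose intervals reached further down. Summed over the 10 hosts, the level was 324.0, 334.0 and 334.5 CPM in WT and 324.8, 328.3 and 314.6 CPM in Fmr1-KO, and the groups overlapped. Without Gas5 the sums were 174.7 ± 6.49 and 168.8 ± 4.09 CPM.

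Levels of different hosts were compared per length, as CPM per kilobase of annotated exon (RPKM), over all transcripts. Gas5 was the highest in WT at 41.5 RPKM. It was followed by Snhg6 (22.6 RPKM), Snhg5 (21.7), Epb41l4aos (16.9), Snhg8 (14.3), Snhg1 (12.1), Snhg15 (8.51), Zfas1 (7.67), Snhg3 (6.54) and Snhg12 (6.41). Neighbours in this order overlapped between the 3 WT libraries only for Snhg6 with Snhg5 and for Snhg3 with Snhg12. In Fmr1-KO, Snhg6 at 18.4 RPKM ranked below Snhg5 at 22.3 RPKM. The order depended on which exon length was used. Retained-intron transcripts make up 20 of the 25 annotated transcripts of Gas5 and 14 of 18 of Snhg1. Leaving their exons out of the length, a choice made after seeing the data, raised several WT values. These became 183.5 RPKM for Gas5, 41.6 for Snhg1, 35.9 for Snhg5, 30.4 for Zfas1 and 20.2 for Snhg8. Values of the other 5 hosts stayed the same, since no retained-intron transcript is annotated for them. The counts were the same in both cases and can still include reads on retained introns, so the raised values may be too high. For Snhg12 the exon length covers the whole gene in both cases. Fold-changes between genotypes do not depend on the length used.

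The hosts also varied among libraries of one genotype. The mean of their log2 CPM, each gene centred on its own mean, was highest in the third WT library, at 0.09, and lowest in the third Fmr1-KO library, at -0.08, with the other 4 libraries between -0.02 and 0.01. Over these 6 libraries, the 5 genes of at least 10 CPM whose centred profile lay nearest to this mean profile, out of 10755, were Pde12, Lrrc47, Thap11, Akap10 and Golga2. Their root mean square distances ran from 0.00918 to 0.0155 log2 units. None of the 5 passed the test between genotypes (edgeR adjusted P from 0.0660 to 0.345). As they were chosen by likeness over these same libraries, this result carries no information of its own.

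The deposited table also has rows for the snoRNAs themselves. These are short RNAs without a poly(A) tail, whereas the libraries were made with a kit for mRNA, so the reads on their rows measure what polyadenylated or co-captured RNA covers those bases, not mature snoRNA. All annotated snoRNA genes together had 958 to 1133 counts per library. Of the 31 snoRNA names of the hosts found in the table, 28 touch an exon of their host, and 2 of those 28 had any count. The 3 that touch no host exon all had counts. The counting settings given by the authors name no option for reads that overlap exons of more than one gene, and by default such reads are assigned to neither, so host reads over these bases would be missing from the host rows as well.

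Gm23201, a box C/D snoRNA within Zfas1, had 21, 22 and 21 counts in WT and 33, 36 and 34 in Fmr1-KO. All Fmr1-KO libraries were above all WT libraries. The log2 fold-change was 0.73 (SE 0.23, edgeR adjusted P = 0.0130), while that of Zfas1 was -0.08. The Gm23201 difference did not pass with DESeq2, at 0.74 (DESeq2 adjusted P = 0.0784), or without the second Fmr1-KO library, at 0.65 (edgeR adjusted P = 0.0531). Snord87, in the intron of Snhg6, had 24, 9 and 23 counts in WT and 15, 17 and 10 in Fmr1-KO. At this depth no difference was detectable (log2 fold-change -0.36, SE 0.35, edgeR adjusted P = 0.442). Snora73b of Snhg3 had 25, 25 and 15 counts and 29, 22 and 12 (log2 fold-change 0.01, edgeR adjusted P = 0.992), a value that changed sign when single libraries were left out. Snora73a, with 7, 3 and 4 counts in WT and 3, 2 and 2 in Fmr1-KO, and Gm23639 of Epb41l4aos, with 5, 5 and 5 and 15, 10 and 8, were under the filter and were not tested.

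The genes nearest to the hosts on the chromosome, which lay up to 330863 bases away, changed in both directions. The nearest tested protein-coding gene on each side of each host was taken, whatever its distance. With the tested gene of nearest start within 5 kb on the opposite strand, where there was one, this gave 20 genes. Of them, 8 were higher, 4 were lower and 8 did not pass. Over all tested genes 20.7% were higher and 21.9% lower. The median of the 20 was 0.08 on the log2 scale. The largest was Prss12, a secreted serine protease of neurons, whose gene ends 955 bases from the end of Snhg8. Prss12 had 17.7, 20.1 and 18.7 CPM in WT and 1.94, 1.21 and 1.75 CPM in Fmr1-KO, a log2 fold-change of -3.52 (SE 0.11, edgeR adjusted P = 1.78e-15), beside -0.12 for Snhg8. Of the genes nearest to Snhg6, Mcmdc2 had -0.16 (interval -0.56 to 0.24). Ppp1r42, 24506 bases from Snhg6, had 0.85 (interval 0.43 to 1.28). Both had few counts. Those of Mcmdc2 were 47, 42 and 39 in WT and 41, 31 and 39 in Fmr1-KO. Those of Ppp1r42 were 42, 39 and 23 in WT and 62, 63 and 57 in Fmr1-KO. The intervals of Snhg6 and Mcmdc2 overlapped and those of Snhg6 and Ppp1r42 did not. The difference between a host and its neighbour was not itself tested.

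Of the hosts, 3 share a start region with a gene on the opposite strand. Zbtb37, whose annotated start lies 427 bases from that of Gas5, was higher, with a log2 fold-change of 0.13 (edgeR adjusted P = 0.0156), and fell short of the threshold without either the third WT library, at 0.09 (edgeR adjusted P = 0.118), or the third Fmr1-KO library, at 0.11 (edgeR adjusted P = 0.0676). Slc3a2, a subunit of amino acid transporters 106 bases from Snhg1, had 0.04 (interval -0.03 to 0.11). Znfx1, 81 bases from Zfas1, was lower at -0.16 (edgeR adjusted P = 0.00251). Gas5, Snhg1 and Zfas1 themselves had -0.02, 0.11 and -0.08.

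Rcc1, the nucleotide exchange factor of the GTPase Ran, shares 135 exonic bases with Snhg3 on the same strand. Rcc1 had 33.2, 35.1 and 34.9 CPM in WT and 41.5, 42.3 and 39.9 CPM in Fmr1-KO, a log2 fold-change of 0.26 (edgeR adjusted P = 7.84e-05), beside 0.08 for Snhg3. Reads on the shared bases are counted for neither gene by default. Phactr4, on the other side of Snhg3, was higher at 0.38. Other neighbours that passed included Syncrip (0.13, 38476 bases from Snhg5), Trnau1ap (0.14, 739 bases from Snhg12) and Nrep (0.17, 330863 bases from Epb41l4aos), which were higher. Wdr74 (-0.20, 9384 bases from Snhg1) was lower. Trnau1ap was at the edge of the threshold (edgeR adjusted P = 0.0347) and failed it under DESeq2 at 0.14 (DESeq2 adjusted P = 0.0939) and when any library other than the second WT library was left out, at 0.12 to 0.14 (edgeR adjusted P from 0.0679 to 0.111).

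**Figure D3:**
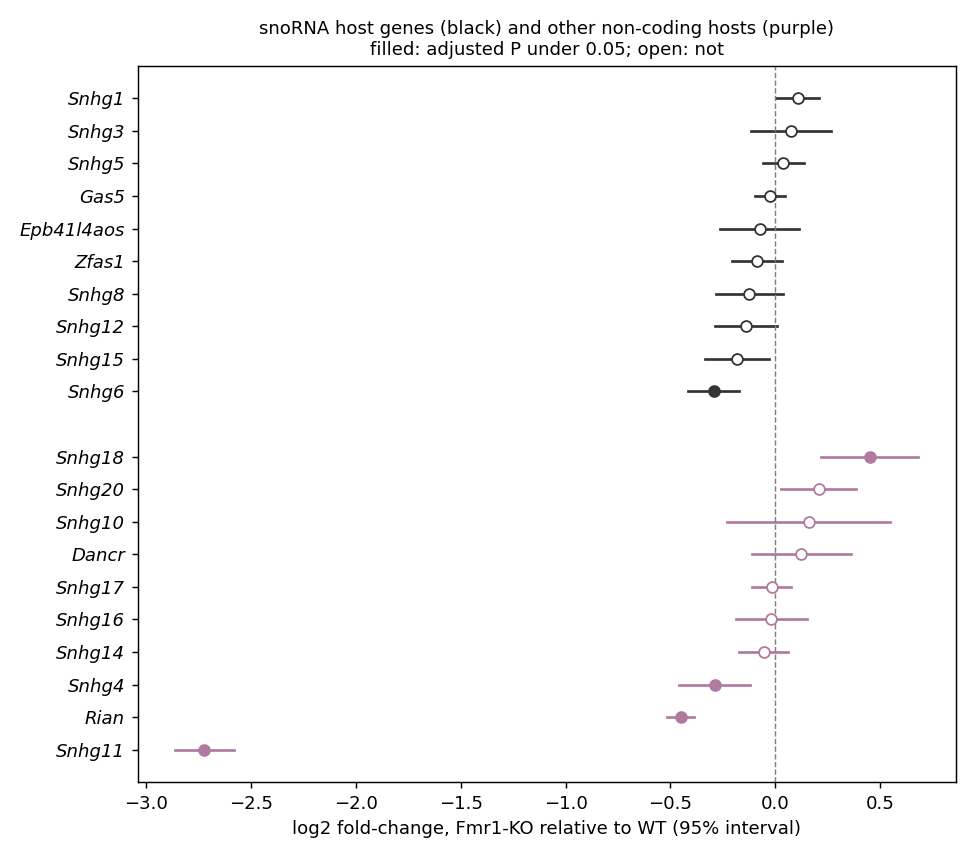
Log2 fold-changes (x axis, Fmr1-KO relative to WT) with 95% intervals of the 10 hosts (black) and of 10 other tested non-coding snoRNA hosts (purple); filled points passed at an adjusted P under 0.05. The black points lie between -0.29 and 0.11, and the purple points between -2.72 and 0.45.

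Other non-coding hosts spanned a wider range. Of 10 tested, 1 was higher and 3 were lower, with a median of -0.02. For this list and those that follow, the shares over all tested genes were 20.7% higher and 21.9% lower. Snhg11 fell from 58.8 ± 2.76 to 8.91 ± 1.17 CPM (log2 fold-change -2.72, edgeR adjusted P = 3.61e-17), and Rian, a long imprinted RNA that carries many box C/D snoRNAs, fell from 341.8 ± 6.74 to 250.1 ± 8.45 CPM (-0.45, edgeR adjusted P = 2.16e-10). Snhg4 fell by 0.29 on the log2 scale (edgeR adjusted P = 0.00680). Snhg18 rose from 4.15 ± 0.502 to 5.67 ± 0.403 CPM (0.45, edgeR adjusted P = 0.00244). Snhg9, with 50 counts in all, was under the filter, and Snhg7 was not analysed here.

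Of 31 protein-coding hosts, 1 was higher and 7 were lower, with a median of -0.04. Their changes were small, between -0.23 and 0.08. The largest were in Cct6a, a chaperonin subunit, at -0.23 (edgeR adjusted P = 1.22e-06), in Nop56, a core protein of box C/D particles, at -0.17 (edgeR adjusted P = 0.000835), and in the ribosomal protein genes Rpl12 and Rpsa, both at -0.15. With library totals in place of TMM, 4 of the 31 were lower.

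The proteins that bind and build the snoRNA particles changed little. Of 8 core proteins 3 were lower and 1 was higher, with a median of -0.06. Those lower were Nop56, Nop10 (-0.16), a subunit of the H/ACA particle, and Fbl (-0.13), the methyltransferase fibrillarin. Gar1, of the H/ACA particle, was higher at 0.15 (edgeR adjusted P = 0.0484). The calls of Fbl and Gar1 were each lost in 8 of 13 other settings, DESeq2 included, and that of Nop10 without the second WT library, at -0.13 (edgeR adjusted P = 0.0528). Of 11 assembly factors 2 were higher and 9 did not pass. Those higher were Pih1d1 at 0.22 and Ruvbl2, a helicase of the same chaperone complex, at 0.14, with a median of 0.03. Ruvbl2 did not pass without the first WT library, at 0.10 (edgeR adjusted P = 0.0671). Of 11 genes of RNA polymerase I and MYC, which drive ribosomal RNA synthesis, 3 were lower and 8 did not pass, with a median of -0.06. Myc fell from 54.1 ± 1.28 to 43.9 ± 0.422 CPM (-0.30, edgeR adjusted P = 2.48e-06), and Polr1b and Polr1a had -0.16 and -0.09. The Polr1a call was lost in 9 of 13 other settings, DESeq2 included.

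Genes of the decay pathway and other mRNAs known to be its substrates were set beside the hosts. Of 10 NMD factors 3 were higher and 1 was lower, with a median of 0.05. Upf3b rose by 0.31 (edgeR adjusted P = 4.75e-05), Upf2 by 0.29 (edgeR adjusted P = 0.00102) and Smg6, an endonuclease of the pathway, by 0.18 (edgeR adjusted P = 0.000920), while Smg8 had -0.14 (edgeR adjusted P = 0.0482). The Smg8 call was lost in 9 of 13 other settings, DESeq2 included (adjusted P up to 0.241). Of 10 stress-response mRNAs known to be NMD-sensitive, 4 were higher and 2 were lower, with a median of 0.14. They included Trib3 (0.83), Gadd45g (0.55) and Chac1 (0.39), which were higher, and Atf3 (-0.40), which was lower. Chac1 did not pass without the first Fmr1-KO library, at 0.30 (edgeR adjusted P = 0.0634). The hosts, with a median of -0.08, had 1 lower and 9 that did not pass. None of these lists was tested against another. RNA levels depend on synthesis as well as decay, and decay was not measured here. From RNA-seq of these cultures, the paper reported that NMD targets it had defined in a mouse neuroblastoma line were generally lower in Fmr1-KO. It also reported more phosphorylated UPF1 protein, which it took as a proxy for NMD efficiency. For a smaller set of NMD targets, measured by RT-qPCR, the paper normalized to the level of the precursor RNA, to allow for changes in synthesis.

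**Figure D4:**
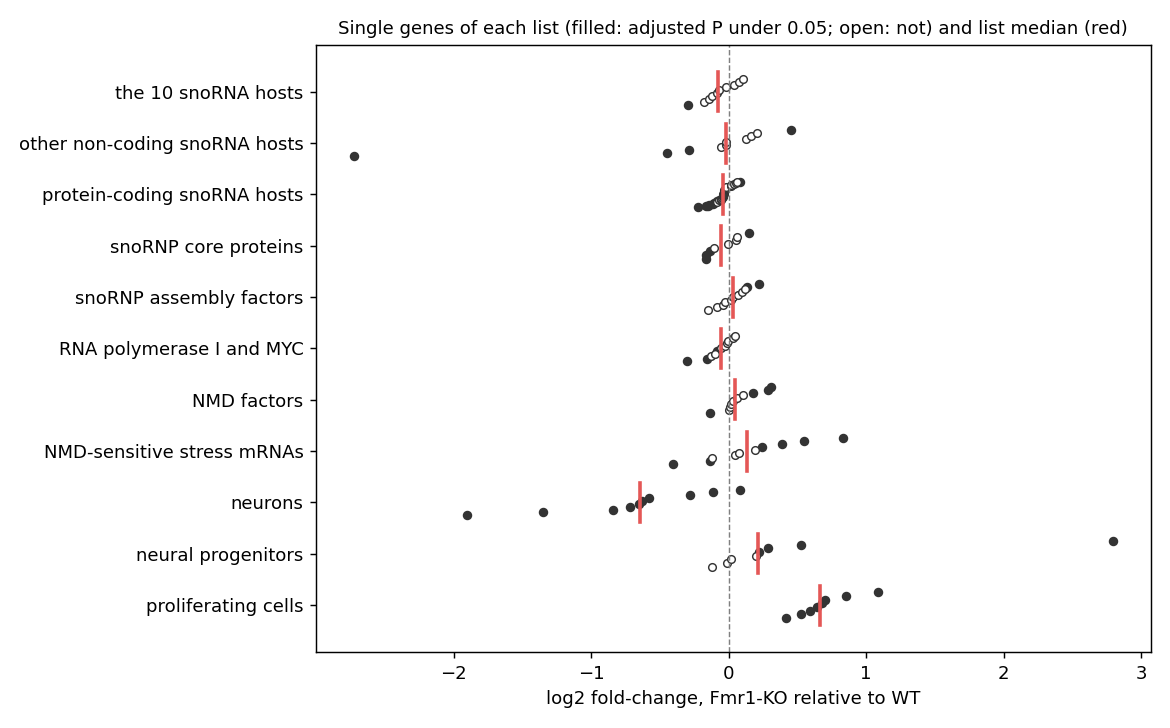
Log2 fold-changes (x axis, Fmr1-KO relative to WT) of single tested genes in 11 lists, one list per row; filled points passed at an adjusted P under 0.05, open points did not, and red lines mark list medians. The 10 hosts lie close to 0 with a median of -0.08, while the neuronal markers have a median of -0.64 and the markers of proliferating cells one of 0.66.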

How the data were processed

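The authors deposited raw counts per gene, with no normalization. Per their methods and processing notes, stranded mRNA libraries were read from one end, trimmed with FastP, aligned to GRCm38.p6 with STAR and counted over exons by gene name with featureCounts in reverse-stranded mode. Counts by name do not separate isoforms, and reads overlapping exons of several names are unassigned by default.

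All rows were fitted with edgeR 4.0.16 (R 4.3.3) after filterByExpr and TMM scaling. The quasi-likelihood test was 2-sided and compared genotypes with no other term, and a Benjamini-Hochberg adjusted P under 0.05 made a call. SE was the fold-change divided by the square root of F, and 95% intervals used the moderated degrees of freedom. Intervals of 3 libraries a group are wide for rare transcripts. DESeq2, which the authors used, was an alternative (1.42.0), with other normalizations (RLE, upper quartile, library totals), no filter, a filter demanding on average 10 counts and 5 CPM, the replicate block and each library left out. The scripts were tested on simulated data. Replicates differed by more than counting noise (chi-square per degree of freedom 2.92 in WT and 3.17 in Fmr1-KO), and no batch is labelled.

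GENCODE M21 (GRCm38), older than the authors' release, gave coordinates, exon lengths and sequences and held 98.6% of tested names. The hosts and all lists were chosen with earlier results of these data known. Genes named were Fmr1, the 10 hosts, neighbours by position, snoRNAs within the hosts, up to 4 called genes of largest change per list, and the 5 nearest profiles. Some neighbours that were counted are not reported here by name. Lists were other non-coding hosts, protein-coding hosts, snoRNP core and assembly proteins, RNA polymerase I and MYC, NMD factors, NMD-sensitive stress mRNAs and markers of neurons, progenitors, proliferating cells, astrocytes, oligodendrocyte lineage, microglia, and endothelial and mural cells. Lists were described by counts and medians, with no set test.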

Additional observations from a re-analysis of the deposited data

How the results depend on the processing

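The fold-changes of the 10 hosts were recomputed under 13 settings. Of 130 values, 124 had the direction and call given in the report, 4 passed where they had not, and 2 changed sign. Snhg6 passed in all 13, from -0.33 to -0.25 when single libraries were left out. The median of the hosts stayed between -0.12 and -0.05. With library totals alone Gas5 turned to 0.0059, Snhg1 passed at 0.14, 1 host was higher, and lists gave 2 other non-coding hosts higher, 4 protein-coding hosts lower, 5 NMD factors higher and 0 lower, and 1 stress mRNA lower. The upper quartile gave 2 other non-coding hosts higher and 0 NMD factors lower. With no filter, Trnau1ap did not pass at 0.13, 0 core proteins were higher and 0 NMD factors lower. The stricter filter gave 2 hosts lower, with Snhg15 at -0.18, while the counts of other non-coding hosts (0) and stress mRNAs (2) higher fell because Snhg18, Trib3 and Chac1 are under its mean of 5 CPM and were not tested. Under DESeq2, Trnau1ap (0.14) and Gm23201 (0.74) did not pass, 0 core proteins were higher, 0 NMD factors lower and 3 microglial markers lower. Apart from that filter, the cause was not tested.

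Leaving out single libraries gave -0.040 to 0.0091 for Gas5 (positive without WT replicate 2), 0.068 to 0.15 for Snhg1, 0.020 to 0.11 for Snhg3, 0.014 to 0.072 for Snhg5, -0.17 to -0.062 for Snhg8, -0.12 to -0.030 for Epb41l4aos, -0.20 to -0.10 for Snhg12, 0.089 to 0.17 for Zbtb37, 0.12 to 0.14 for Trnau1ap, -0.14 to 0.22 for Myo1g, 0.65 to 0.79 for Gm23201, -0.68 to -0.12 for Snord87 and -0.30 to 0.33 for Snora73b. Counts then ran over 0 to 1 hosts higher and 1 to 2 lower, 1 to 2 other non-coding hosts higher, 0 to 1 protein-coding hosts higher, 0 to 1 core proteins higher and 1 to 3 lower, 1 to 3 assembly factors higher and 0 to 1 lower, 0 to 1 NMD factors lower, 2 to 5 stress mRNAs higher and 1 to 2 lower, 0 to 1 neuronal markers higher and 3 to 5 microglial markers lower.

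Replicate numbers in the labels are shared by the genotypes. Over all tested genes, same-numbered libraries did not deviate together (correlations -0.0267, 0.0304 and -0.0172). The labels do not say whether they share anything beyond the number. With the replicate block, 0 hosts were higher and 1 lower, 0 core proteins were higher and 1 assembly factor was lower, and 3488 and 3694 of all genes passed as higher and lower. A shorter exon length without retained-intron transcripts, with the counts unchanged, was added after seeing the data. It gave WT values of 183.5 RPKM for Gas5, 41.6 for Snhg1, 35.9 for Snhg5, 30.4 for Zfas1 and 20.2 for Snhg8. Depth limits Snhg3 and Epb41l4aos most, the hosts with the fewest counts and the widest intervals.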
